A study of Mus musculus with 10 samples.

Results

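DNA methylation was measured by reduced representation bisulfite sequencing (RRBS) in sperm of C3H/HeN mice, and the regions described here are the differentially methylated regions (DMRs) beside which the authors' table lists a microRNA gene as having the nearest transcription start site (TSS). In RRBS, DNA is digested at CCGG and short bisulfite-treated fragments are read, which favours CpG-rich sequence. The arsenic group was 5 F1 males whose dams drank sodium arsenite in tap water from mid to late gestation, and the control group was 5 F1 males whose dams drank tap water alone. Males of both groups were 15 to 17 weeks old. These samples are a second experiment of the study, in which needles were used to press sperm from the cauda epididymis, and a step that lyses somatic cells is described for the other experiment only. No marker of somatic cells can be read from a list of DMRs, so their part in the differences was not tested. The study's methods name different litters for its males, while the labels of these samples name no litter. The authors' table gives 1 value per DMR for both groups together, so it holds no methylation level of a single mouse, no coverage and no p-value, and the spread between mice behind each difference is unknown.

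A DMR was a member where the gene symbol listed beside it starts with Mir and a digit, or with Mirlet. This gave 7 of 389 distinct DMRs, on 5 chromosomes, and each of the 7 stood on a single row. Their listed genes were Mir760, Mir378c, Mir669m-1, Mir6414, Mirlet7i, Mir6923 and Mir100. Of the 7 listed genes, 5 lie where the table puts them in the RefSeq gene table, and 2, Mir378c and Mir669m-1, lie on other chromosomes there. By the starts of GENCODE basic transcripts, a microRNA gene was the nearest gene for 3 of the 7, namely Mir6923, Mirlet7i and Mir760. The difference in methylation is given in percentage points with the sign as deposited. The table does not state which group was subtracted: a positive value means higher methylation in arsenic sperm if the control level was taken away from the arsenic level, and lower methylation in arsenic sperm if it was the other way round.

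MicroRNAs are short RNAs cut from a folded precursor, the hairpin, and they guide Argonaute proteins to messenger RNAs through the seed, bases 2 to 8 of the mature strand. Many microRNA genes lie in introns or in long non-coding host transcripts and are made from the host's start site, so the start of the hairpin that an annotation lists as the TSS is often not where transcription begins. The let-7 family is known for promoting differentiation, and Lin28 proteins, which block its maturation, are active in mouse primordial germ cells. Sperm carry microRNAs to the egg along with methylated DNA.

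The mature sequences are shown because they say which microRNA each listed gene encodes and which of them share a seed, with the seed in capitals. They come from RefSeq (GRCm38.p6), in which 6 of the 7 genes had an entry. Mir669m-1 is named only.
let-7i-5p: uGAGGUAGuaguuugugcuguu
let-7i-3p: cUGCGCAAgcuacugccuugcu
miR-100-5p: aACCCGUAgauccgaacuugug
miR-100-3p: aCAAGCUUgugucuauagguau
miR-760-3p: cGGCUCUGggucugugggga
miR-760-5p: cCCCUCAGgccaccagagcccgg
miR-378c: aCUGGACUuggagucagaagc
miR-6414: cUAAGUUCugagcugagucuug
miR-6923-5p: gUGAGGGCaggaggauuggggugu

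The 9 mature sequences above had 9 different seeds, so no seed was shared among them. The seed of Mir669m-1 was not examined. The seed of let-7i-5p, GAGGUAG, is held by 11 mature names from 13 genes of the RefSeq table, among them let-7a to let-7g and miR-98. These 13 genes include Mir1961 and leave out Mirlet7a-2, for which only let-7a-2-3p has an entry. They are thus not the same set as the let-7 and miR-98 genes followed further below. The seed of miR-100-5p, ACCCGUA, is held by 3 names, and the other two are miR-99a-5p and miR-99b-5p, shown here because they differ from miR-100-5p outside the seed.
miR-99a-5p: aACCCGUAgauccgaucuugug
miR-99b-5p: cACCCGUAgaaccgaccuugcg

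The regions themselves are shown for the members that are short enough, on the plus strand of GRCm38, the same build as mm10. Capitals mark CpG, the dinucleotide that carries the methylation measured, and 1 flanking base is added on each side so that a CpG at the edge is whole. The reference is of the C57BL/6J strain, and C3H/HeN mice may differ from it at single bases.
DMR listed to Mir760, chr3:122322437-122322652: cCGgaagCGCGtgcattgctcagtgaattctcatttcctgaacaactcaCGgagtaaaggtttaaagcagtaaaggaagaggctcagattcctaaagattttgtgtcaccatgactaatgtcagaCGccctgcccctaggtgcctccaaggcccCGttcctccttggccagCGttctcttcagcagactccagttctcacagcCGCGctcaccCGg
DMR listed to Mirlet7i, chr10:122960478-122960536: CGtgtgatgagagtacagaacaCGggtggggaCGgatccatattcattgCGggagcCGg
DMR listed to Mir100, chr9:41475635-41475757: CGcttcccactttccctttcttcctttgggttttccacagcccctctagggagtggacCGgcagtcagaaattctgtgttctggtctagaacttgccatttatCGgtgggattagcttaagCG
DMR listed to Mir6414, chr5:42258089-42258143: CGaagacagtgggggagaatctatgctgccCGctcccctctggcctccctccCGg
DMR listed to Mir378c, chr3:97324806-97324977: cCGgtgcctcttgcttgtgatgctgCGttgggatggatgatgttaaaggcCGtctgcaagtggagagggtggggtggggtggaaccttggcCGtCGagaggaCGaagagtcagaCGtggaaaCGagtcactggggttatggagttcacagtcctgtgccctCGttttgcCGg

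The microRNA-listed DMRs had mostly positive differences of modest size. The difference was positive in 6 of the 7 and negative in 1, against 82.8% positive among all 389 DMRs of the table, so the share of positive signs was near that of the whole list. The size of the difference lay between 10.8 and 14.9 points, with a median of 11.3 points, against a median of 11.8 points (quartiles 10.8 and 14.1) over all DMRs. None of the 7 reached 15 points, which 66 of 389 DMRs (17.0%) did. A DMR needed a difference above 10 points to be listed, and 4 of the 7 were under 12 points, as were 54.8% of all DMRs.

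**Figure D1:**
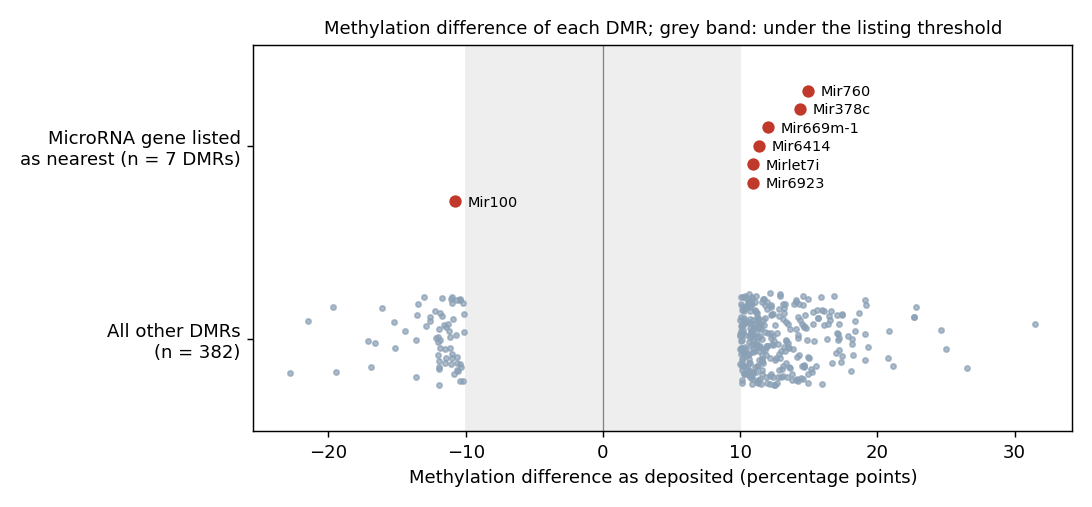
Methylation difference as deposited (percentage points, x axis) of the 7 DMRs listed to a microRNA gene (red, named) and of the 382 other DMRs (blue, spread vertically at random), with the range under the listing threshold in grey. The 6 positive members lie between 10.9 and 14.9 points and the DMR of Mir100 lies at -10.8 points, all within the bulk of the other DMRs.

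The DMR listed to Mir760 had the largest difference of the 7, 14.9 points, which ranked 72 of 389 by size. It spans 214 bp at chr3:122322438-122322651 and was called over 10 CpG cytosines, of which 4 were differentially methylated cytosines (DMCs). Only 22 of 389 DMRs (5.66%) had 4 or more DMCs. The reference holds 10 CpG sites there, printed above, which form a cluster near each end of the DMR and 4 scattered sites between. The DMR lies 28735 bp upstream of the listed start of Mir760, whose hairpin is at chr3:122293585-122293703 on the minus strand.

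The DMR of Mir760 is outside every transcript of the GENCODE basic set, but not outside every annotated transcript. It falls within the span of 1 long Bcar3 transcript that is in the full GENCODE annotation only and starts 28302 bp away. It also falls within the span of the RefSeq non-coding gene Gm40139, which starts 775 bp away. Whether it lies in an exon or an intron of Gm40139 was not examined. Bcar3 encodes an adaptor protein of cell adhesion signalling and lies on the opposite strand to Mir760. In the basic set the nearest start of any class was still that of Mir760, and the nearest coding start was that of Dnttip2 at 48050 bp.

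The DMR listed to Mirlet7i had the highest share of DMCs among the 7. Its difference was 10.96 points, rank 270 of 389 by size, over 5 CpG cytosines of which 3 were DMCs, a share that ranked 17 of 389 against a median of 25% over all DMRs. It spans 57 bp at chr10:122960479-122960535 and has 5 CpG sites in the reference, or 8.77 per 100 bp, against a median of 4.58 per 100 bp over all DMRs. The DMR lies 25189 bp downstream of the listed start of Mirlet7i, whose hairpin is at chr10:122985640-122985724 on the minus strand, and overlaps no gene. Its nearest coding start was that of the protein phosphatase gene Ppm1h at 65111 bp.

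The only negative member was the DMR listed to Mir100, with -10.8 points over 3 CpG cytosines and 1 DMC, the smallest size of the 7. It spans 121 bp at chr9:41475636-41475756, with 4 CpG sites in the reference. The table gives 55669 bp to the hairpin of Mir100 at chr9:41531425-41531504, and the DMR is upstream of it. It lies inside the host transcript of Mir100, the long non-coding gene Mir100hg (3110039I08Rik in GENCODE), which also carries Mirlet7a-2 and Mir125b-1. Mirlet7a-2 lies 60960 bp from the DMR.

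Measured to the host gene, the negative DMR was close to a start site. Of 23 GENCODE transcripts of 3110039I08Rik that overlap it, 12 start within 1000 bp upstream of it, the nearest at 576 bp, and 13 of the 23 span the start of Mir100. In RefSeq, 4 Mir100hg transcripts overlap the DMR, 2 start within 1000 bp, both at 743 bp, and 3 span Mir100. The DMR was intronic in the GENCODE basic set, where it also overlapped the non-coding genes Gm49317 and Gm48742. Its nearest coding start, that of Ubash3b, was 317574 bp away. With 3 CpG cytosines this DMR is at the minimum for listing.

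The DMR listed to Mir6923 was the closest to its listed start, at 74 bp, which ranked 4 of 389. It was the only 1 of the 7 that touched an exon of the GENCODE basic set. Its difference was 10.9 points over 10 CpG cytosines with 2 DMCs. It spans 520 bp at chr11:67099211-67099730 inside Myh3, the myosin heavy chain gene of embryonic skeletal muscle, with 276 and 131 bases in 2 coding exons and the 113 bases of the intron between them. The hairpin of Mir6923, chr11:67099804-67099875, fills the next Myh3 intron from its first to its last base, all 72 bases, on the same strand. The start of Myh3, the nearest coding start, lies 20911 bp from the DMR.

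The end of this DMR and the hairpin are shown together because they are separated by 73 bases only. The first 155 of the 300 bases are the end of the DMR, the last 72 are the hairpin, and capitals mark CpG.
DMR end to Mir6923 hairpin, chr11:67099576-67099875: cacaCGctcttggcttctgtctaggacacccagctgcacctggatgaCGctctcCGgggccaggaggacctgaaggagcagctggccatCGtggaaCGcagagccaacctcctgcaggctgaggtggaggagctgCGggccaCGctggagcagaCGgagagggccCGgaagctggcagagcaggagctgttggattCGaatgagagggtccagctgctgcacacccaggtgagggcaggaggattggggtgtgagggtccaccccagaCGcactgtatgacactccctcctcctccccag

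The DMR listed to Mir6414 was the shortest, 53 bp at chr5:42258090-42258142, with 11.3 points over 3 CpG cytosines and 1 DMC. It lies 366748 bp downstream of the listed start of Mir6414, the largest distance of the 7, outside genes. The start of the coding gene Gm16223 was nearer in GENCODE, at 190130 bp. 

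For the remaining 2 members the listed gene is placed elsewhere by RefSeq. The DMR listed to Mir378c, chr3:97324807-97324976, had 14.4 points (rank 88 of 389) over 18 CpG cytosines with 2 DMCs. It was the most densely measured of the 7, with 90.0% of the 20 CpG cytosines of the reference counted. The table gives it a start at position 97309256 on chromosome 3, 15551 bp away, whereas RefSeq places Mir378c at chr14:46954830-46954928. The nearest microRNA gene of RefSeq on chromosome 3 is Mir7225, 365533 bp from the DMR. In GENCODE, the nearest coding start was that of the olfactory receptor gene Olfr1402 at 86203 bp.

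The sequence at the listed start on chromosome 3 was compared with the hairpin of Mir378c. With the first base of the hairpin laid at that start and no gaps, 22 of 99 bases were the same. The mature miR-378c was not found in those 99 bases. The longest exact run shared within 300 bases on either side was 16 bases, positions 20 to 35 of the hairpin, and it begins at the listed start, at chr3:97309256-97309271. This run has 118 exact copies on the 21 chromosomes, and 78.8% of the 99 bases at the listed place are repeat-masked. The count of 22 is out of register with this run, and likeness in the register of the run was not measured. In that register the mature strand would begin before the listed start, so the 99 bases could not hold it whole. The hairpin from chromosome 14 is shown with the shared run in capitals, of which the first bases belong to the mature strand at positions 4 to 24.
Mir378c hairpin, chr14:46954830-46954928: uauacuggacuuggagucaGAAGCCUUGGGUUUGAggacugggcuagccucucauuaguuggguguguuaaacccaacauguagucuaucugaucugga

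The DMR listed to Mir669m-1, chr5:79814901-79815521, had 12.1 points over 11 CpG cytosines with 1 DMC. It is the longest of the 7 at 621 bp, and it lies upstream of the listed start, 298997 bp away on chromosome 5. RefSeq places Mir669m-1 at chr2:10512790-10512887, within the rodent miR-669 cluster in an intron of Sfmbt2. The nearest microRNA gene of RefSeq on chromosome 5 is Mir5098, 2542063 bp from the DMR, and the nearest coding start in GENCODE is that of the adhesion receptor gene Adgrl3 at 1205681 bp. The table and RefSeq thus differed in chromosome for 2 of 7 microRNA accessions, against 2 of the 444 other accessions (0.450%), which were Gm12669 and the small nucleolar RNA gene Snord14d. A further 5 of the 444 (1.13%) had no entry among the RefSeq genes, so their chromosome could not be compared. Snord14d was 1 of only 2 small nucleolar RNA genes in the table.

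**Figure D2:**
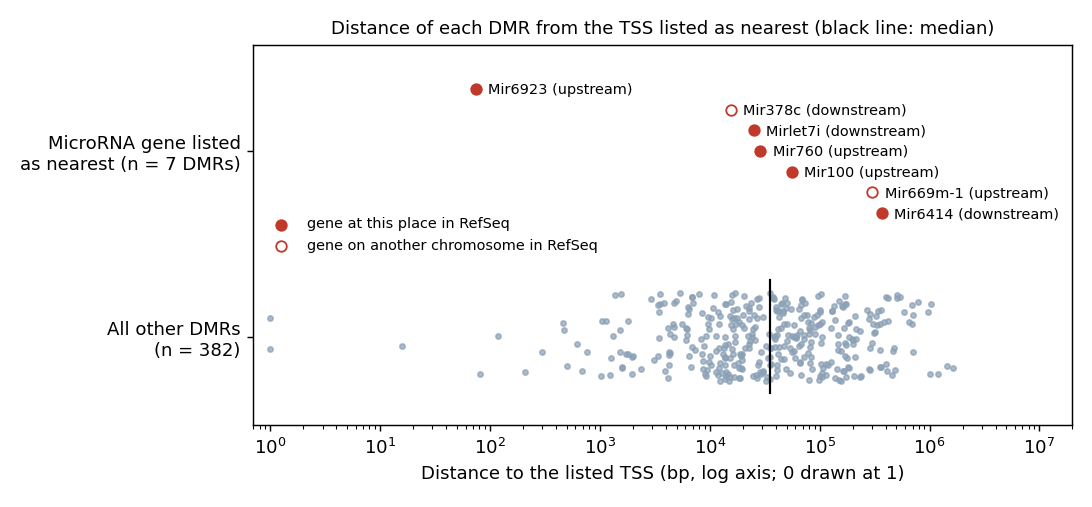
Distance from each DMR to the TSS listed as nearest (bp, log x axis) for the 7 microRNA-listed DMRs (red, named, with the side of the start on which the DMR lies) and the 382 other DMRs (blue, spread vertically at random, black line at the median of 35562 bp). Open circles are Mir378c and Mir669m-1, which RefSeq places on other chromosomes. Mir6923 stands alone at 74 bp and the other members lie between 15551 and 366748 bp.

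Over the 7 members, the median listed distance was 28735 bp, against 35530 bp over all DMRs. The DMR lay upstream of the listed start in 4 and downstream in 3. Only 1 of the 7 (14.3%) lay within 2000 bp of a listed start, against 7.97% of all DMRs. These distances are to the start the table lists, whether or not another start is nearer, and were not tested.

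The number of cytosines behind each difference varied among the members. The 7 DMRs counted 60 CpG cytosines together, of which 14 were DMCs, and their reference sequence holds 148 CpG cytosines on both strands. The CpG column counts single cytosines of either strand, since in 113 of 389 DMRs it exceeds the number of CpG sites. Of the 7, 4 had 2 or more DMCs (57.1%), against 30.3% of all DMRs, and they were Mir760, Mirlet7i, Mir378c and Mir6923. The others, Mir669m-1, Mir6414 and Mir100, rest on a single DMC. With 7 members, the share of 57.1% is 4 regions and was not tested.

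**Figure D3:**
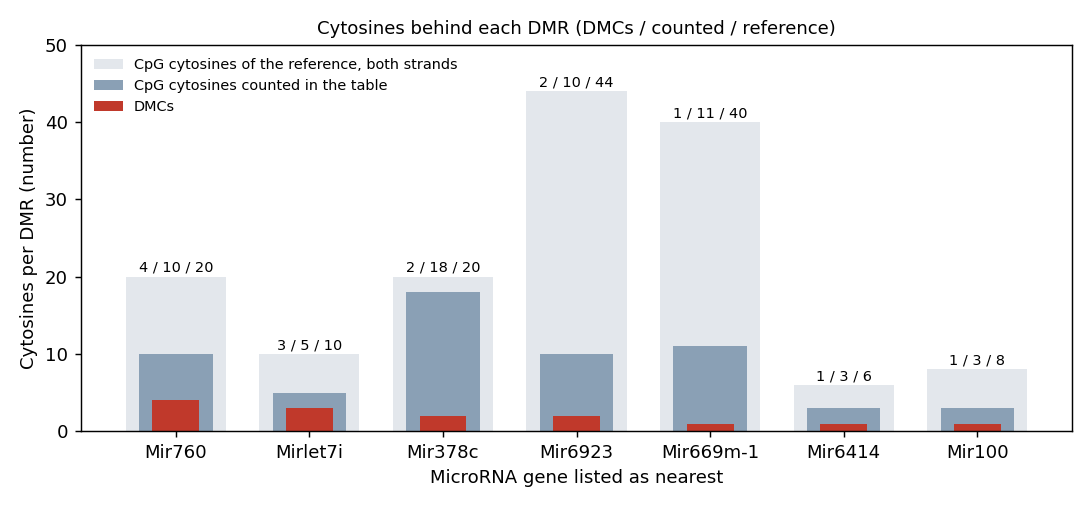
Number of cytosines (y axis) in each of the 7 DMRs, with the microRNA gene listed as nearest on the x axis. Pale bars are CpG cytosines of the reference on both strands, blue bars those counted in the table and red bars DMCs, with the 3 numbers above each bar. Mir760 had 4 DMCs of 10 counted and Mirlet7i had 3 of 5, while Mir669m-1 had 1 of 11.

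Sequence features that the rule did not use were read from the reference. All 7 members had a median of 1 exact match for their stretches of 30 bases, whereas 22.4% of all DMRs had a median of 2 or more. Such a median does not exclude diverged copies or copies of a part of the DMR. None was over 50% repeat-masked, against 27.8% of all DMRs, and the highest masked share was 25.6%, in the DMR of Mir100. Free of any masked base were 2 of the 7 (28.6%), against 47.0% of all DMRs. Their median GC content was 56.1%, against 55.6% over all DMRs, and their CpG density was 4.67 per 100 bp, against 4.58. Of the 7, 5 lay outside the transcripts of GENCODE basic (71.4%), against 51.7% of all DMRs. With 7 members, these shares were not tested.

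**Figure D4:**
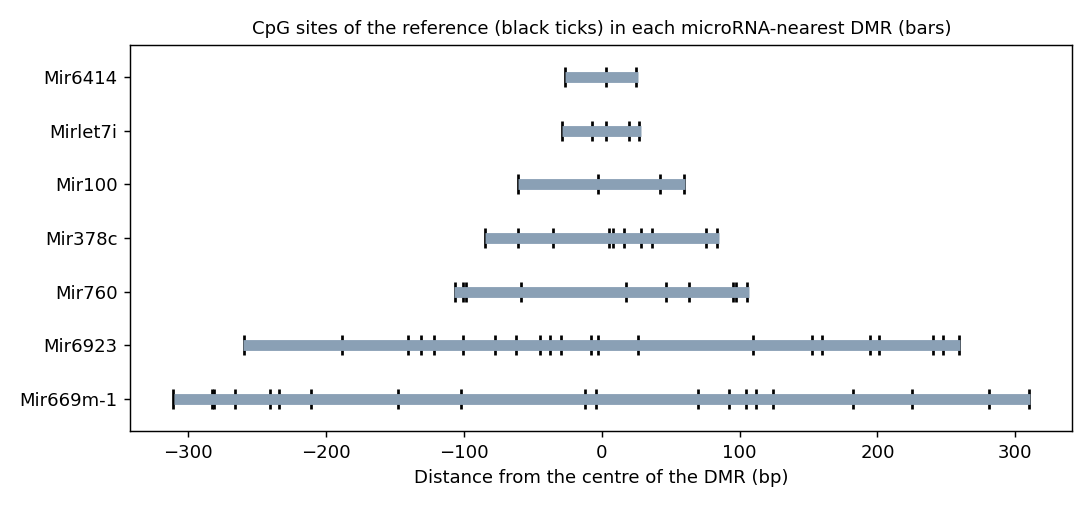
CpG sites of the reference (black ticks) in each of the 7 DMRs (blue bars, to scale), by distance from the centre of the DMR in bp. The DMRs are ordered by length, from 53 bp (Mir6414) to 621 bp (Mir669m-1), and that of Mirlet7i holds 5 sites within 57 bp.

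The same values were taken for DMRs listed to other kinds of gene. DMRs listed to small nucleolar RNA genes, the other class of short non-coding RNA, numbered 2, of which 1 was positive, with a median size of 12.5 points, too few to compare. DMRs listed to other non-coding transcripts numbered 53, with 88.7% positive and a median size of 11.6 points, and DMRs listed to coding transcripts numbered 327, with 82.0% positive and a median of 11.8 points. These values stand beside 85.7% and 11.3 points for the 7 microRNA-listed DMRs.

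To see which DMRs lie near a microRNA gene whatever gene the table lists, the distance to each of 1228 microRNA genes of RefSeq was measured. Within 50000 bp of 1 of them lay 14 DMRs, 9 positive and 5 negative (64.3% positive, beside 82.8% over all DMRs). Only 3 of the 14 were listed to the microRNA gene, namely Mir6923, Mirlet7i and Mir760. The other 11 were listed to a coding gene, with 6 positive and 5 negative differences, and 7 of them touched an exon, as did 105 of all 389 DMRs (27.0%). Neither share was tested.

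The largest of these was a positive DMR of 18.2 points over 4 CpG cytosines in a coding exon of Gabre, a GABA receptor subunit gene, 8532 bp from Mir452 and 9728 bp from Mir224 on chromosome X. The next by size was negative, -16.1 points near Mir3080 at 37983 bp, listed to Tcf20. A DMR of -15.2 points in an intron of Tjp3 lay 18307 bp from Mir3057 and had 5 DMCs of 8 CpG cytosines. The DMR 44302 bp from Mir7060, in a coding exon of the zinc finger gene Zfp689, had 14.3 points over 23 CpG cytosines. The other positive ones were 11.2 points near Mir7023, at 4190 bp in Pik3cd, 11.1 points near Mir3060 (7559 bp), 10.7 points near Mir7082 (45997 bp) and 11.97 points near Mir5622 (46688 bp). The other negative ones were -11.6 points near Mir6911 (15435 bp), -13.6 points near Mir3085 (48843 bp) and -11.9 points near Mir6962 (49988 bp).

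The let-7 and miR-98 genes were then followed one by one, since Mirlet7i is a member and Mirlet7a-2 shares its host with Mir100. RefSeq has 13 such genes, Mir7k (let-7k) included, and 2 of them, Mirlet7i and Mirlet7a-2, lay within 100000 bp of a DMR, as did 38 of all 1228 microRNA genes (3.09%). Their differences were 10.96 and -10.8 points, and both DMRs are among the 7 that the rule chose, so the count says nothing further about the family. The cluster of Mirlet7d, Mirlet7f-1 and Mirlet7a-1 on chromosome 13 lay 245199 to 247366 bp from a DMR of -19.7 points with 4 DMCs of 7 CpG cytosines, listed to A330048O09Rik. Mirlet7b and Mirlet7c-2 on chromosome 15 lay 367288 and 367994 bp from a DMR of -12.6 points listed to Gramd4. Mir98 and Mirlet7f-2 on chromosome X lay 996419 and 997312 bp from a DMR of 10.3 points. Mir7k on chromosome 5 lay 823767 bp from a DMR of 10.9 points with 3 DMCs of 7 CpG cytosines, listed to Mtus2. For Mirlet7e, Mirlet7g and Mirlet7c-1 the nearest DMR was 1654564 to 5810307 bp away. The 13 genes had 9 nearest DMRs between them, 6 positive and 3 negative, beside 82.8% positive over all DMRs. These counts were not tested.

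**Figure D5:**
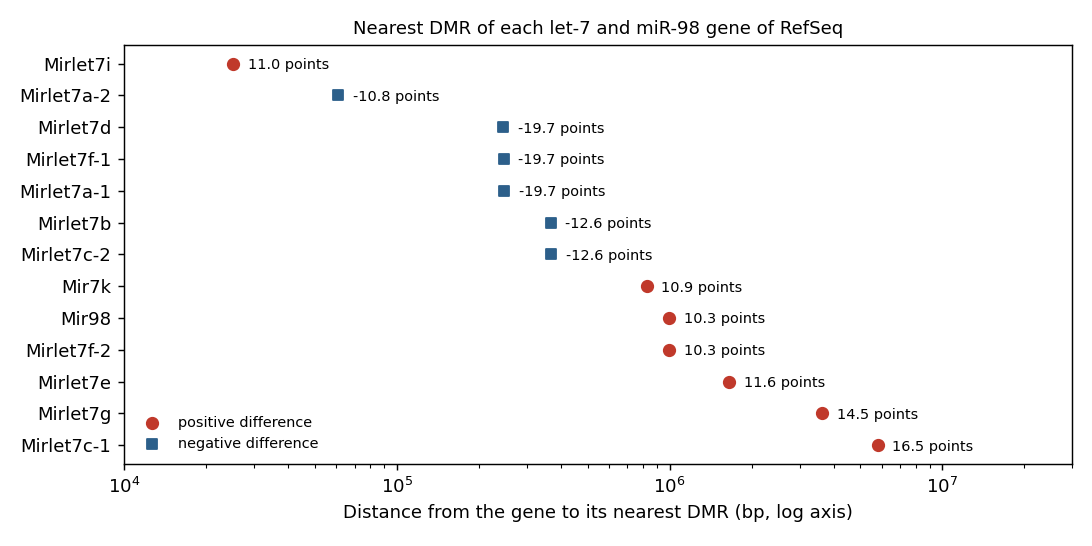
Distance from each of the 13 let-7 and miR-98 genes of RefSeq to its nearest DMR (bp, log x axis), with the difference of that DMR in percentage points beside the point. Red circles are positive and blue squares negative differences. Mirlet7i and Mirlet7a-2 are the 2 genes within 100000 bp, and genes of 1 cluster share a DMR.

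Genes that make or use microRNAs were looked up in the same way, from short lists of chosen symbols. Of 24 symbols for microRNA processing and action, 22 were in the gene table. Those missing, Zcchc11 and Zcchc6, are older symbols of Tut4 and Tut7, which are among the 22. Of the 22, 0 were listed beside a DMR, where 360 of all 49997 symbols of the RefSeq table (0.720%) were. A count of 0 in a list this short is near the share over all genes. Lin28a, which blocks let-7 maturation, had the nearest DMR of this list at 39366 bp (-10.1 points, 3 CpG cytosines), and Trim71, a ubiquitin ligase that is itself a let-7 target, had 1 at 82776 bp (15.9 points, 2 DMCs of 4 CpG cytosines). Of 26 let-7 target genes 0 were listed as nearest, and Insr, the insulin receptor gene, had a DMR at 71912 bp (11.04 points, 5 DMCs of 12 CpG cytosines). Hmga2, a chromatin protein gene and target of let-7, lay 106285 bp from a DMR of 15.4 points. Within 100000 bp of a DMR lay 2 of the 22 processing genes and 3 of the 26 let-7 targets, and Lin28a and Trim71 are in both lists. The median distance was 1444797.5 bp for the processing genes and 1042604.5 bp for the let-7 targets. The share of all genes at such distances was not computed. The regions that were tested and not called are not in the table, so no enrichment was computed for any list.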

How the data were processed

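RRBS was made from sperm DNA of 5 arsenic and 5 control F1 mice. Per the labels and the study's methods, trimming by the authors used Trim Galore and alignment to mm10 used Bismark. DMCs came from methylKit and DMRs, regions of 3 or more CpGs with at least 1 DMC, from eDMR. A version is given in the submitters' notes for bedtools, 2.25.0. The study's methods name a later bedtools version and also a version of methylKit. The table deposited by the authors has 465 rows for 389 distinct DMRs and 0 columns of single mice, with a signed difference in percentage points, numbers of CpG cytosines and DMCs and a listed TSS per DMR. Its smallest values were 3 CpGs, 1 DMC and 10.0 points. Depth per mouse is thus unknown, and no test or interval for a difference could be given.

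Listed starts were read as counting from 0, since the next base was a CpG cytosine of either strand in 389 of 389 DMRs, and positions are given counted from 1. Distances run from the nearest edge of a DMR. Gene context and nearest starts were taken per transcript from GENCODE vM21 basic, microRNA genes from RefSeq (GRCm38.p6) and exact copies of 30-base stretches from the genome, where DMRs under 100 bp were widened to 100 bp. Copy counting and distances were tested on simulated data. The named genes are all members, their overlapping and nearest coding genes, microRNA genes within 50000 bp of a DMR and listed genes. Members and lists were chosen with earlier results of these data known. Insr, Trim71, Hmga2 and the let-7 clusters were named after their distances were seen. Software was numba 0.67.0, matplotlib 3.10.9, pandas 2.3.3 and numpy 2.4.6 under Python 3.11.15.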

Additional observations from a re-analysis of the deposited data

How the results depend on the processing

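The 7 microRNA-listed DMRs, 6 of them positive, were the same in number when rows were counted, when DMRs within 1000 bp were merged and with 1 DMR per gene, but since each stands on a single row and has its own gene these settings could hardly change them. At 12 points or more 3 DMRs were left, all 3 positive, with a median size of 14.4 points, and at 15 points or more 0 were left. With 2 or more DMCs 4 were left, all 4 positive, and with a listed TSS within 20000 bp 2, both positive. The only negative member, that of Mir100, has 10.8 points, 1 DMC and a listed distance of 55669 bp. It therefore passed none of these settings, and the share of positive signs among all DMRs under them was not computed. Of the 2 within 20000 bp, 1 is that of Mir378c, a gene that RefSeq places on chromosome 14. Taking the nearest TSS from GENCODE basic gave 11 DMRs, 10 of them positive, of which 3 (Mir6923, Mirlet7i and Mir760) were among the 7, or 42.9% of the 7 and 27.3% of the 11. Where only genes at their RefSeq place were kept, which was chosen after seeing the data, 5 DMRs with 4 positive remained. The median distance of 28735 bp lay between 20370 and 28842 bp over 5 alternatives, which is no sign of stability, since the SD of the 7 distances is 152386 bp. The 14 DMRs within 50000 bp of a microRNA gene became 6 at 20000 bp, 33 at 100000 bp, 6 at 12 points or more and 7 with 2 or more DMCs.

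Leaving out each mouse in turn was not run, because the table has no value per mouse. No paired analysis was possible because the table has no columns of single mice.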

Other observations

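MicroRNA genes that are abundant in testis and sperm and microRNA genes of imprinted clusters were also measured to their nearest DMR. Of 15 genes of the testis and sperm list, 0 lay within 100000 bp of a DMR, and the nearest were Mir449a, Mir449b and Mir449c on chromosome 13, a cluster active in ciliated and male germ cells, at 232906 to 234439 bp from a DMR of 12.5 points listed to Esm1. Mir26a-1 lay 398453 bp from a DMR of -11.01 points listed to Itga9, and Mir10a lay 444888 bp from a DMR of -10.6 points listed to Snx11. Of 15 genes of the imprinted list, 0 lay within 100000 bp, and the nearest were Mir483, in the gene of insulin-like growth factor 2, at 240424 bp and Mir675, made from the H19 transcript, at 318273 bp, both from a DMR of 18.2 points listed to Th. For comparison, 38 of all 1228 microRNA genes of RefSeq (3.09%) lay within 100000 bp of a DMR, a share at which a list of 15 may hold none. Within 1 Mb of a DMR lay 33.3% of the testis and sperm list and 13.3% of the imprinted list, against 29.4% of all microRNA genes. The shares were not tested against each other.

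The 8 DMRs that were nearest to a microRNA gene in GENCODE but listed to another gene in the table were all nearest to genes with Gm symbols. The 3 closest were Gm24105 at 79 bp (10.5 points, listed to Alox5ap), Gm27943 at 496 bp (10.7 points, listed to Glb1l) and Gm22066 at 1687 bp (11.3 points, listed to Myoz2). They were chosen after their distances were seen. GENCODE holds 2202 microRNA genes, against 1228 in RefSeq. By RefSeq, only the DMR of Mir6923 lay within 2000 bp of a microRNA gene. The DMR listed to Glb1l lay 308320 bp from its nearest RefSeq microRNA gene, Mir375.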
